A study of Mus musculus with 20 samples.

Results

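Histone genes were followed in p19/Nras mouse liver cancer cells with and without Trim33, under overexpression of Myc or treatment with hydroxyurea (HU). Members were all genes whose symbol begins with Hist1h, Hist2h, Hist3h, Hist4h, H1f, H2af or H3f in either count table. This gave 70 genes among the 13107 of the Myc experiment, of which 58 were replication-dependent (symbols beginning with Hist) and 12 were replacement histone genes. The HU table held 33 of the 70, 22 replication-dependent and 11 replacement, among 11210 genes. The 37 members that only the Myc table listed included 11 of 12 H3 genes, 9 of 10 H4 genes and 9 of 16 H2B genes of the replication-dependent class. The HU results below therefore concern mainly H2A genes, with 12 of 16 present.

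Cells copy their DNA in S phase and need new histones for it, which come from the replication-dependent genes for the core histones H2A, H2B, H3 and H4 and the linker histone H1. Most of these genes have no introns and lie in clusters, and their mRNAs end in a conserved stem-loop in place of a poly(A) tail, which the stem-loop binding protein Slbp holds. These mRNAs are made as cells enter S phase and are degraded when DNA synthesis stops, whereas replacement histones such as H3.3, H2A.Z, H2AX and macroH2A are made throughout the cell cycle, mostly from polyadenylated mRNAs.

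The study asked how Trim33, a ubiquitin ligase, acts on cells under replicative stress. RNA-seq was run on cells that all descend from 1 line of a liver tumour, driven by Nras in a mouse without p19/Arf, and no sample retains p19. In the Myc experiment, Trim33-WT cells (guide sgCtrl) and the Trim33-KO lines KO1 and KO2 (sgTrim33) carried either the empty vector pWZL (Ctrl) or a Myc vector, giving 6 groups. The HU experiment had 4 groups: Trim33-WT and Trim33-KO cells, each with no treatment or with 1 mM HU for 4 hours. Which of the KO lines served there is not labelled. Each of the 10 groups had 2 libraries, 20 in all. The labels do not say whether these came from separate cultures, so p-values measure the spread between these libraries, which may be technical.

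Libraries held 14753177 to 17949430 counts in the Myc experiment and 2315327 to 3082202 in the HU experiment, so 21 of 70 and 13 of 33 members stayed below 50 counts in every library. Levels are given as CPM, a gene's counts scaled to a library of 1000000 counts. Trim33 mRNA, read first as a check of the labels, reached 246 and 258 CPM in the WT Ctrl pair, 123 and 130 in KO1 Ctrl, 201 and 207 in KO2 Ctrl, 131 and 155 in WT Myc, 185 and 193 in KO1 Myc, and 124 and 125 in KO2 Myc. The libraries labelled KO1 Myc thus held more Trim33 mRNA than those labelled WT Myc (log2 fold change 0.40, edgeR adjusted p = 0.000243), which goes against the labels. A guide can abolish the protein without lowering its mRNA, so this count cannot settle the genotype. These 3 groups are called the libraries labelled WT Myc, KO1 Myc and KO2 Myc. Where WT, KO, KO1 or KO2 is written for them below, it gives the label alone. In the HU experiment Trim33 was at 125 to 142 CPM in the 4 WT libraries and 43.8 to 52.2 in the 4 KO libraries. Of 14 hepatocyte markers, 3 were listed in the Myc table (Krt8, Krt18 and Afp, without Alb), against 6 of 6 mesenchymal and 0 of 3 endothelial markers. Summed over the listed genes, the hepatocyte markers reached 1873 to 3765 CPM of the library totals and the mesenchymal ones 2791 to 4242. The HU table listed 4 of the 14 hepatocyte markers, with Apob, and 4 of the 6 mesenchymal ones.

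The 3′ end of the member genes was read from the mouse genome (mm9). The motif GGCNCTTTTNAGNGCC, the stem-loop with N for any base, was searched on the coding strand in the 300 bases after the stop codon. It was found in 50 of the 57 replication-dependent members with an annotated stop codon, in 1 of 9 replacement members, and in 61 of 21964 protein-coding genes overall (0.278%). The replacement member was H2afx, which encodes H2AX, the variant phosphorylated at DNA breaks, and its match lay 46 bases after the stop codon. The stem-loops of the members that carry the results are shown with the motif in capitals. The core of Hist1h2ao occurred in 35 members. In the annotation 35 of the 51 sites lie in an annotated UTR, as do those shown, except for Hist1h2ao, whose gene model ends before its site, 38 bases after the stop codon.
Hist1h2ao (H2A, mm9 chr13:21902762-21902787, plus strand): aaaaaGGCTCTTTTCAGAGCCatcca
Hist3h2a (H2A, mm9 chr11:58768669-58768694, plus strand): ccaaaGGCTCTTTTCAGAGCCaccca
Hist1h4h (H4, mm9 chr13:23623322-23623347, plus strand): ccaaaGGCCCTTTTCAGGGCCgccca
Hist1h4i (H4, mm9 chr13:22132830-22132855, minus strand): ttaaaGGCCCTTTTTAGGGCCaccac
Hist1h1c (linker H1, mm9 chr13:23831376-23831401, plus strand): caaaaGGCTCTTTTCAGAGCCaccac
H2afx (H2AX, mm9 chr9:44143318-44143343, plus strand): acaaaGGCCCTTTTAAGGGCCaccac
The H4 genes shared a GGCCC stem that the H2A genes did not have (6 members with the Hist1h4h core), and H2afx had a GGCCC stem too. The motif was not found for Hist1h2al, Hist1h2an, Hist1h3g, Hist1h4a, Hist1h4b, Hist1h4j and Hist2h2be, which says only that these letters are not in this window.

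Replication-dependent genes are near copies of each other, which sets how far single members can be told apart. Their first 60 coding bases show this for H2A, with bases that differ from Hist1h2ao in capitals. H2afx, also an H2A gene but a replacement member, stands at the end for comparison.
Hist1h2ao (mm9 chr13:21902336-21902395, plus strand): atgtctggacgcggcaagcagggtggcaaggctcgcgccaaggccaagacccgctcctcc
Hist1h2ap (mm9 chr13:21925285-21925344, minus strand): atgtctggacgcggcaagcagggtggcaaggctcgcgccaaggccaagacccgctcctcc
Hist1h2ag (mm9 chr13:22134737-22134796, minus strand): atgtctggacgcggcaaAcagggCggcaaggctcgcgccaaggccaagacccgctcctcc
Hist3h2a (mm9 chr11:58768240-58768299, plus strand): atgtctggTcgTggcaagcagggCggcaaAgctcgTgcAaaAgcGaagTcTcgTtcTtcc
H2afx (mm9 chr9:44142845-44142904, plus strand): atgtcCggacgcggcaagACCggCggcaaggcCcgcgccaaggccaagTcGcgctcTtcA
Over the whole coding sequence of 390 bases, Hist1h2ao and Hist1h2ap were identical, Hist1h2ag differed from them at 3 bases and Hist3h2a at 44. Grouping genes that share at least 20% of their 50-base words gave a family of 18 (H2A genes with the overlapping Hist2h3 genes), 15 H2B genes, 10 H4 genes and 9 H3 genes. Hist1h2bq and Hist1h2br had the same count in all 12 libraries of the Myc experiment. Counts within a family are therefore uncertain and not independent, and several members that move together can be few independent measurements. Of the replication-dependent members 6 were joined to no family: Hist3h2a, Hist1h1b, Hist1h1c, Hist1h1d, Hist1h1e and Hist2h2be. Of the 12 replacement genes 10 were joined to none, and the others, H3f3a and H3f3c, formed a pair (52.8% of the words of H3f3c occur in H3f3a). In the Myc experiment the counts of this pair differed by at most 68 in any library, with a highest count of 2458. Counts of replacement members called below include both genes, which are not independent.

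Of the 70 members, 51 lie on chromosome 13, where the main histone cluster is, 8 on chromosome 3, 3 on chromosome 11, and the others on 6 further chromosomes. Taken as a class, the replication-dependent genes were a small and variable part of a library. Their summed counts made up 0.0408% and 0.0416% of the WT Ctrl libraries, 0.0674% and 0.07% of KO1 Ctrl, and 0.0714% and 0.0608% of KO2 Ctrl. With the Myc vector they made up 0.0848% and 0.063% in the libraries labelled WT Myc, 0.0732% and 0.0675% for KO1 Myc, and 0.0652% and 0.0641% for KO2 Myc. WT Ctrl was thus the lowest group, and the other 5 lay together above it. The 12 replacement genes took 0.174% to 0.26% in all 12 libraries, with no such gap between WT Ctrl (0.208% and 0.198%) and the rest.

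**Figure D1:**
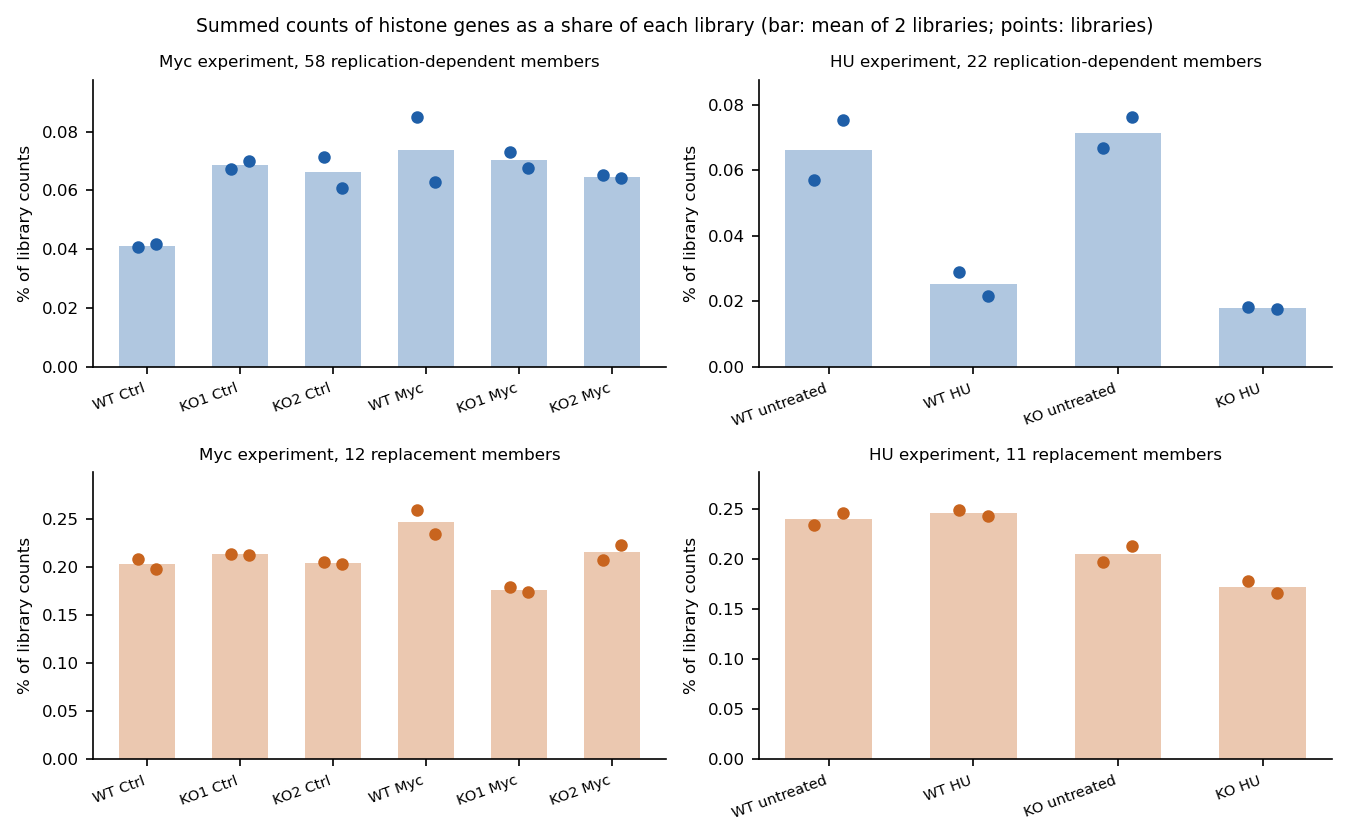
Summed counts of replication-dependent and replacement histone genes as a percent of each library's counts, by group, for the Myc and HU experiments (bars: means of 2 libraries; points: libraries). The replication-dependent share is lowest in WT Ctrl (0.0408% and 0.0416%) and falls with HU in both WT and KO cells, while the replacement share stays between 0.166% and 0.26% in all libraries.

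Loss of Trim33 in cells with the empty vector went with more replication-dependent histone mRNA, foremost of H4. In KO1 Ctrl against WT Ctrl, 26 of 58 replication-dependent members rose and 2 fell (edgeR quasi-likelihood test, adjusted p below 0.01), where 25.5% of all 13107 genes were called higher and 26.7% lower. Their median log2 fold change was 0.86, against −0.00 for all genes. H4 genes rose in 9 of 10 cases (median 1.28), H2A genes in 11 of 16 with 1 lower (1.09) and H3 genes in 5 of 12 (0.92), whereas 1 of 16 H2B genes rose (0.23) and none of 4 H1 genes did, 1 of them being lower. In KO2 Ctrl, 34 replication-dependent members rose and 1 fell (median 0.81), beside 23.3% of all genes called higher and 26.6% lower. There all 10 H4 genes rose (median 2.04), with 10 of 16 H2A genes and 1 lower (0.76), 8 of 16 H2B genes (0.66), 6 of 12 H3 genes (0.94) and none of 4 H1 genes (0 at an unadjusted p below 0.05). Both comparisons share the WT Ctrl libraries. With DESeq2 the H4 calls were 8 and 10, but those of H3 went from 5 to 0 in KO1 Ctrl and from 6 to 1 in KO2 Ctrl, and those of H2B from 1 to 0 and from 8 to 2. Without KO1 Ctrl replicate 2 the members called in KO1 Ctrl, both classes together, fell from 36 to 20. In KO2 Ctrl they went from 41 to 27 without WT Ctrl replicate 1, to 26 without WT Ctrl replicate 2 and to 24 without KO2 Ctrl replicate 1.

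The H4 genes encode the same core protein of the nucleosome, the partner of H3. Hist1h4h was counted at 0.989 and 1.23 CPM in WT Ctrl, 2.46 and 3.48 in KO1 Ctrl, then 5.36 and 4.75 in KO2 Ctrl. These 3 groups did not overlap, and KO2 Ctrl was the highest of all 6 groups. The log2 fold change was 1.41 ± 0.30 (SE, adjusted p = 0.000634 by edgeR) in KO1 Ctrl and 2.18 ± 0.27 (adjusted p = 3.25e-06) in KO2 Ctrl. Hist1h4i was at 5.51 and 4.24 CPM in WT Ctrl, 12.9 and 11.8 in KO1 Ctrl, then 17.6 and 17.3 in KO2 Ctrl, again in this order without overlap. It rose by 1.34 ± 0.15 and 1.84 ± 0.15 on the log2 scale. Among the other H4 genes the largest changes were those of Hist1h4f (1.72 ± 0.38 in KO1 Ctrl and 2.42 ± 0.34 in KO2 Ctrl) and Hist1h4b (1.48 ± 0.29 and 2.22 ± 0.26), followed in KO2 Ctrl by Hist1h4c (2.06) and Hist1h4j (2.05). In KO1 Ctrl the calls of Hist1h4f (adjusted p = 0.0162 and 0.0127) and Hist1h4h (0.0111 and 0.0147) were lost without WT Ctrl replicate 1 and without KO1 Ctrl replicate 2.

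H2A genes were called in both KO lines as well, with medians below those of H4, a difference that was not tested. Hist1h2ao, one of the identical H2A pair, was at 61.5 and 56.2 CPM in WT Ctrl, 121 and 130 in KO1 Ctrl, then 113 and 85.7 in KO2 Ctrl. Both WT Ctrl libraries lay below all others of the experiment for this gene. The log2 fold change was 1.09 ± 0.15 in KO1 Ctrl (edgeR adjusted p = 7.72e-06) and 0.75 ± 0.15 in KO2 Ctrl (adjusted p = 0.000377). Hist1h2ae had the largest value of the H2A genes, 1.31 ± 0.27 and 1.23 ± 0.27, and its call in KO1 Ctrl was lost without WT Ctrl replicate 2 (adjusted p = 0.0107). H2B genes were called in KO2 Ctrl more often than in KO1 Ctrl, but the difference between the KO lines was not tested. Hist1h2bc, for example, was at 18 and 18.1 CPM in WT Ctrl, 19.3 and 17 in KO1 Ctrl, then 23.8 and 23.2 in KO2 Ctrl, and was called in KO2 Ctrl alone (0.38 ± 0.09).

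One H2A gene went the other way. Hist3h2a lies apart from the main cluster, on chromosome 11, and shares 2.16% of its 50-base words with Hist1h2ao and was joined to no read family. It was at 15 and 16 CPM in WT Ctrl, 6.72 and 6.64 in KO1 Ctrl, then 7.32 and 6.96 in KO2 Ctrl. The WT Ctrl libraries stood above all 10 others, which lay between 6.52 and 8.91 CPM. The log2 fold change was −1.21 ± 0.13 in KO1 Ctrl (edgeR adjusted p = 3.87e-07) and −1.12 ± 0.12 in KO2 Ctrl (adjusted p = 9.79e-07). The linker histone gene Hist1h1c, with 64.1 and 72.2 CPM in WT Ctrl against 57.9 and 47 in KO1 Ctrl, fell by 0.38 ± 0.11 on the log2 scale in KO1 Ctrl, a call that was lost without WT Ctrl replicate 2 (−0.29, adjusted p = 0.0784) or without KO1 Ctrl replicate 2 (−0.24, adjusted p = 0.109). Over the 6 replication-dependent members in no read family, KO1 Ctrl had 1 called higher (Hist2h2be, 0.61 ± 0.17) and 2 lower (Hist3h2a and Hist1h1c), with a median of −0.49, and KO2 Ctrl none higher and 1 lower (Hist3h2a), with a median of −0.17. All other members called higher in this class belong to a read family, and no H4 or H3 gene is among the 6.

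**Figure D2:**
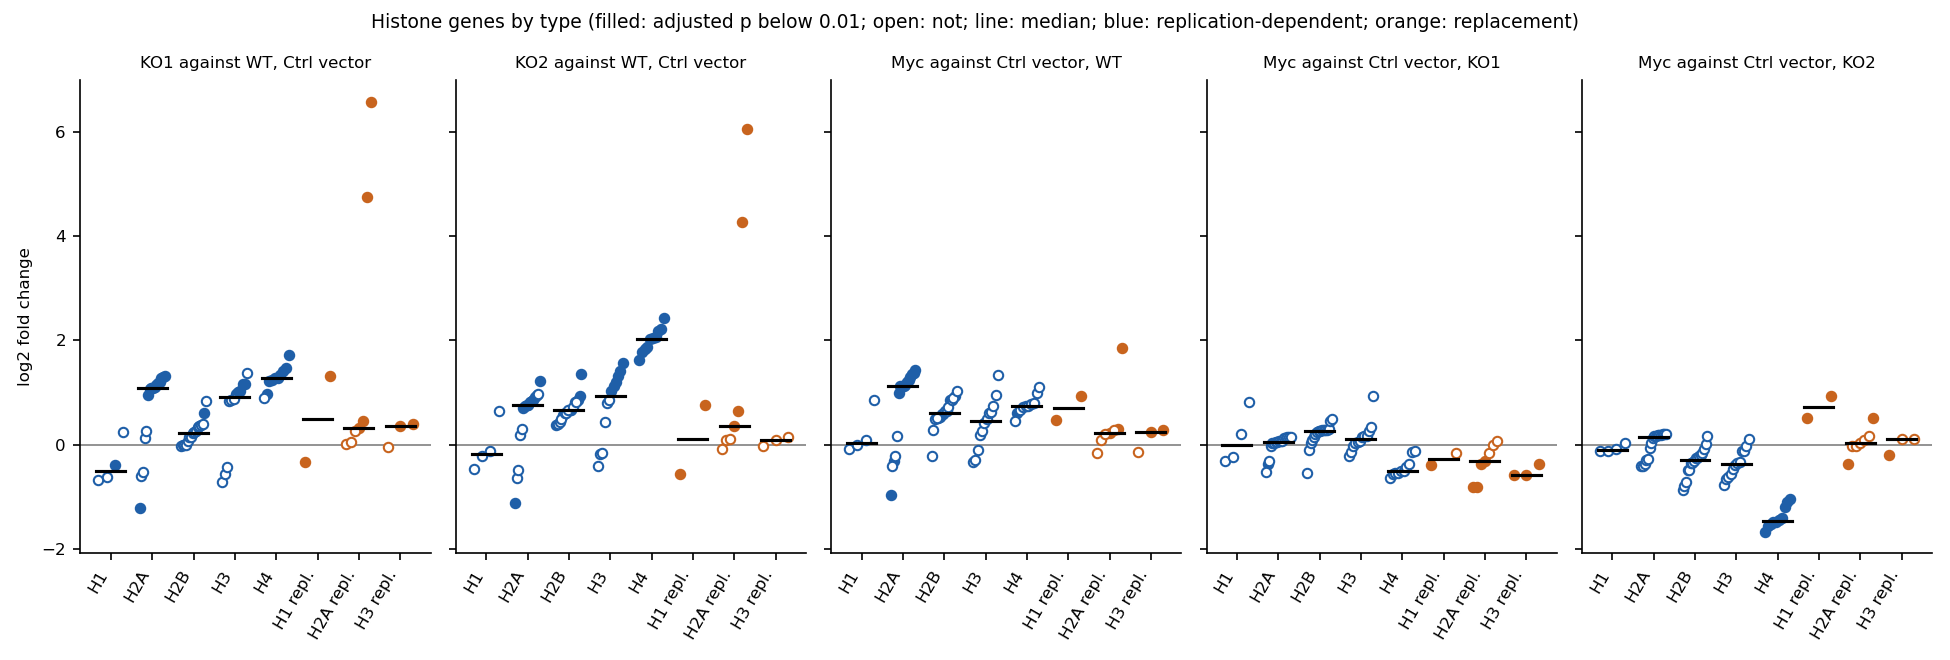
Log2 fold changes of the 70 histone genes by class and type in each comparison of the Myc experiment (points: genes; filled: adjusted p below 0.01; lines: medians). H4 genes reach a median of 1.28 (KO1 Ctrl) and 2.04 (KO2 Ctrl) over WT Ctrl, and with the Myc vector −0.50 in KO1 (none called) and −1.46 in KO2.

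Replacement genes changed one by one in the same cells. In KO1 Ctrl 7 of 12 rose and 1 fell (median 0.34), where 25.5% of all genes were called higher and 26.7% lower, and in KO2 Ctrl 5 rose and 1 fell (median 0.12), beside 23.3% and 26.6%. By far the largest change was that of H2afy2, which encodes macroH2A2, a histone with a large non-histone domain that is associated with silent chromatin. H2afy2 had 5 and 4 counts in the WT Ctrl libraries against 452 and 474 for KO1 Ctrl, then 328 and 325 for KO2 Ctrl. The ratios of the summed counts, scaled to library size, were 102 (exact 95% counting interval 53.3 to 223) and 72.1 (37.7 to 158), which cover counting error only. H2afy3 moved with it, from 2 and 2 counts in WT Ctrl to 65 and 54 for KO1 Ctrl. For KO2 Ctrl it had 40 and 47 counts. Its ratios were 29.4 (11.2 to 109.6) and 21.6 (8.14 to 81.1). Of the words of H2afy3, 6.34% occur in H2afy2, below the limit for joining a read family. The part of shared reads in the changes of H2afy3, here and under the Myc vector, was not tested. In the HU experiment H2afy2 was at 10.5 to 16.7 CPM in the WT libraries and 5.29 to 16.4 in the KO libraries. The gap between WT and KO cells was therefore not seen there, with the untreated WT libraries at 16.7 and 10.5 CPM and the untreated KO libraries at 5.29 and 16.4.

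The other replacement genes changed less. H1fx, a linker histone variant, was at 15.7 and 14.8 CPM in WT Ctrl, 41.3 and 34.8 in KO1 Ctrl, then 27 and 24.8 in KO2 Ctrl. It was lowest in WT Ctrl of all 6 groups, and rose by 1.32 ± 0.11 and 0.77 ± 0.12 on the log2 scale. H2afx was at 99.1 and 88.8 CPM in WT Ctrl, 133 and 126 in KO1 Ctrl, then 149 and 148 in KO2 Ctrl, and rose by 0.46 ± 0.06 and 0.66 ± 0.06, in the same order of groups as the H4 genes. H2afj also rose in both (0.32 and 0.37). Of the H3.3 genes, H3f3a rose in KO1 Ctrl (0.41 ± 0.06) and was at 0.15 ± 0.06 in KO2 Ctrl without passing the test, and its near copy H3f3c rose in KO1 Ctrl (0.36). H3f3b, which encodes the same protein, was at −0.04 ± 0.05 and −0.03 ± 0.05, H2afz (H2A.Z) at 0.03 ± 0.08 and −0.08 ± 0.08, and H2afy (macroH2A1) at 0.05 ± 0.06 and 0.10 ± 0.06, none of which passed. H1f0, the linker histone of resting and differentiated cells, fell by 0.32 ± 0.08 in KO1 Ctrl and by 0.56 ± 0.08 in KO2 Ctrl on the log2 scale. It was at 723 and 661 CPM in WT Ctrl, 555 and 554 in KO1 Ctrl, then 475 and 466 in KO2 Ctrl, and its call in KO1 Ctrl was lost without WT Ctrl replicate 1 (adjusted p = 0.0385), KO1 Ctrl replicate 1 (0.0169) or KO1 Ctrl replicate 2 (0.0178).

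Genes that supply or use histones were counted in the same comparisons, where 25.5% of all genes were called higher and 26.7% lower for KO1 Ctrl, then 23.3% and 26.6% for KO2 Ctrl. Of 18 genes of S phase entry (such as the Mcm helicase genes and Pcna), 15 rose and 2 fell in KO1 Ctrl (median 0.76), and 16 rose and 1 fell in KO2 Ctrl (0.91). Of 23 histone chaperones and assembly factors tested, 14 rose and 2 fell in KO1 Ctrl (median 0.30), and 16 rose and 2 fell in KO2 Ctrl (0.39). They included Chaf1a, a subunit of the assembly factor CAF-1 (0.75 and 0.95), Asf1b, a chaperone of H3 and H4 (0.42 and 0.76), and Dek (0.83 and 1.10). Cenpa, the centromeric H3 that the symbols do not cover, rose by 0.69 and 0.83. Of 10 genes that act in transcription of replication-dependent histone genes, 5 and 6 rose and none fell (medians 0.37 and 0.44), led by the cyclin E genes Ccne2 (2.02 and 2.24) and Ccne1 (1.33 and 2.26), while Npat, the coactivator at these promoters, was at −0.00 and 0.13 and did not pass. Of 16 tested genes for the 3′ end, translation and decay of histone mRNA, 5 rose and 5 fell in KO1 Ctrl and 5 rose and 3 fell in KO2 Ctrl (medians −0.06 and −0.06), shares near those over all genes. Slbp itself rose by 0.78 in both. In bulk samples, more cells in S phase and more histone mRNA per cell cannot be told apart, and the part of the S phase genes in the histone result was not tested. By growth curves and DNA staining, the paper reported no effect of Trim33 knockout on growth or cell cycle phases without stress. As CPM of the library totals, the listed cholangiocyte markers Krt19 and Sox9 (2 of 4 markers) summed to 571 to 578 in WT Ctrl, 102 to 107 in KO1 Ctrl and 166 to 172 in KO2 Ctrl. The 6 mesenchymal markers summed to 2791 to 2979, 4168 to 4242 and 3289 to 3334. Their part in the histone result was likewise not tested.

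The Myc vector in WT cells was next compared with the empty vector, to ask how histone genes follow Myc. In the libraries labelled WT Myc, 18 of 58 replication-dependent members rose and 2 fell against WT Ctrl (median 0.66), beside 21.6% of all genes called higher and 22.7% lower. These were H2A genes, with 11 of 16 higher and 2 lower (median 1.13), and H2B genes, with 6 of 16 higher (0.61), whereas 1 of 10 H4 genes (0.75) and none of 12 H3 (0.45) or 4 H1 genes (0.04) was called higher. At an unadjusted p below 0.05 these were 8, 1 and 0 genes, and DESeq2 called 0 of each, with 1 of 16 H2B genes. The largest changes were those of Hist1h2ab (1.44), Hist1h2ai (1.38), Hist1h2ae (1.35), Hist1h2ad (1.30) and Hist1h2ah (1.25). Hist1h2ao was at 154 and 103 CPM in the libraries labelled WT Myc against 61.5 and 56.2 in WT Ctrl, above them in both libraries though far apart between the replicates (1.12 ± 0.15, edgeR adjusted p = 8.87e-06). Hist3h2a fell here too, to 8.91 and 7.1 CPM (−0.96 ± 0.12), as did Hist1h2al (−0.31 ± 0.09, adjusted p = 0.00591). Hist1h2ab (adjusted p = 0.0103) and Hist1h2ae (0.0110) missed the threshold without WT Ctrl replicate 2. Hist1h2al did so without WT Ctrl replicate 1 (0.0401), WT Ctrl replicate 2 (0.0227) or WT Myc replicate 1 (0.0497). It also missed with only the compared groups in the edgeR fit (adjusted p = 0.0392) and with DESeq2 (0.0193).

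Of the replacement genes 7 of 12 rose with the Myc vector in WT cells and none fell (median 0.26). Over all genes 21.6% were called higher and 22.7% lower, the shares for all counts of this paragraph. H1fx rose by 0.94 ± 0.11, from 15.7 and 14.8 to 31.4 and 27.2 CPM, and H1f0 by 0.47 ± 0.08, from 723 and 661 to 1034 and 880 CPM. For H1f0 the direction differed from that in the KO lines, and the libraries labelled WT Myc were the highest of all groups. H3f3a rose by 0.29 ± 0.06, H2afx by 0.30 ± 0.06 and H2afy by 0.23 ± 0.06, and H3f3b (−0.14 ± 0.05) and H2afz (0.09 ± 0.08) did not pass. H2afy2 was at 0.781 and 1.48 CPM, against 0.353 and 0.273 in WT Ctrl (1.85 ± 0.43), close to WT Ctrl and far below all KO libraries. The calls of H2afx (adjusted p = 0.0190 without WT Ctrl replicate 2), H2afy (0.0139, 0.0233 and 0.0168 without WT Ctrl replicate 1, WT Ctrl replicate 2 and WT Myc replicate 1) and H2afy2 (0.0229 and 0.0633 without WT Ctrl replicate 2 and WT Myc replicate 2) were lost with 1 library fewer. With only the compared groups in the edgeR fit, those of H2afx (adjusted p = 0.0112) and H2afy (0.0294) were lost too. The S phase entry genes rose in 17 of 18 cases and fell in 1 (median 0.69), and 13 of 23 chaperones rose and 1 fell (median 0.22), Slbp by 0.75, Chaf1a by 0.58, Asf1b by 0.73 and Cenpa by 0.69. Npat fell by 0.33 on the log2 scale. Of the transcription list 4 of 10 rose and 1 fell (median 0.13). Of the 3′ end list 5 of 16 rose and 4 fell (median 0.12), not far from the shares over all genes.

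In the groups labelled as Trim33-KO, the Myc vector gave another picture. In KO1, none of 58 replication-dependent members rose and 1 fell with the Myc vector (median 0.07), beside 17.9% of all genes called higher and 18.2% lower. The gene that fell was Hist1h2al (−0.36 ± 0.08), and at an unadjusted p below 0.05 there were 3 higher and 9 lower, with 0 and 1 called by DESeq2. The 10 H4 genes all had negative values here, from −0.63 to −0.11 (median −0.50). None of them was called, and 5 were lower at an unadjusted edgeR p below 0.05. Of the 12 replacement genes, 8 fell and none rose (median −0.37). The members that fell were H2afy2 (−0.81 ± 0.10), H2afy3 (−0.81 ± 0.20), H3f3a (−0.58 ± 0.06), H3f3c (−0.57 ± 0.06), H1fx (−0.38 ± 0.10), H3f3b (−0.37 ± 0.05), H2afv (−0.37 ± 0.09) and H2afx (−0.32 ± 0.06). Among these, H3f3a and H3f3c have near-equal counts and are not independent. H3f3a was at 154 and 149 CPM in KO1 Ctrl and 106 and 97.7 in the libraries labelled KO1 Myc, which did not overlap. H1f0 (−0.16 ± 0.08), H2afz (−0.15 ± 0.08) and H2afy (0.06 ± 0.06) did not pass. Without KO1 Ctrl replicate 1 the members called went from 9 to 4, with H2afx (adjusted p = 0.0101), H1fx (0.109), Hist1h2al (0.0254) and H2afy3 (0.0558) among those lost. H1fx also missed without KO1 Myc replicate 1 (0.0106) or 2 (0.0642), H2afy3 without either (0.0268 and 0.0241), and Hist1h2al without KO1 Myc replicate 1 (0.0333).

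In KO2, all 10 H4 genes fell with the Myc vector and no other replication-dependent gene was called (median of the 58 members −0.30, of H4 −1.46), beside 20.2% of all genes called higher and 18.6% lower. Hist1h4h went from 5.36 and 4.75 CPM in KO2 Ctrl to 2.14 and 1.60 in the libraries labelled KO2 Myc, and Hist1h4i from 17.6 and 17.3 to 9.02 and 7.96. Both genes stayed above WT Ctrl in these libraries. The largest changes were those of Hist1h4f (−1.66 ± 0.28), Hist1h4c (−1.56 ± 0.23), Hist1h4k (−1.52 ± 0.22), Hist1h4b (−1.48 ± 0.22) and Hist1h4a (−1.48 ± 0.22). The 10 H4 genes share reads, so that 10 calls do not stand for 10 independent measurements. H2A genes were at a median of 0.14 and Hist1h2ao at 113 and 85.7 against 118 and 113 CPM. Of the replacement genes H1fx (0.94 ± 0.10), H2afy2 (0.52 ± 0.09) and H1f0 (0.51 ± 0.08) rose, and H2afx (−0.37 ± 0.06) and H3f3b (−0.19 ± 0.05) fell, with a median of 0.10 over the 12. H3f3b missed the threshold without any 1 of the 4 libraries (adjusted p = 0.0129 to 0.0885). H3f3a (0.12 ± 0.06), H2afz (0.04 ± 0.08) and H2afy (−0.03 ± 0.06) did not pass. Of the S phase entry genes 1 rose and 10 fell (median −0.25) in KO2, and 2 rose and 3 fell (median −0.06) in KO1. Their part in the fall of the H4 genes was not tested.

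**Figure D3:**
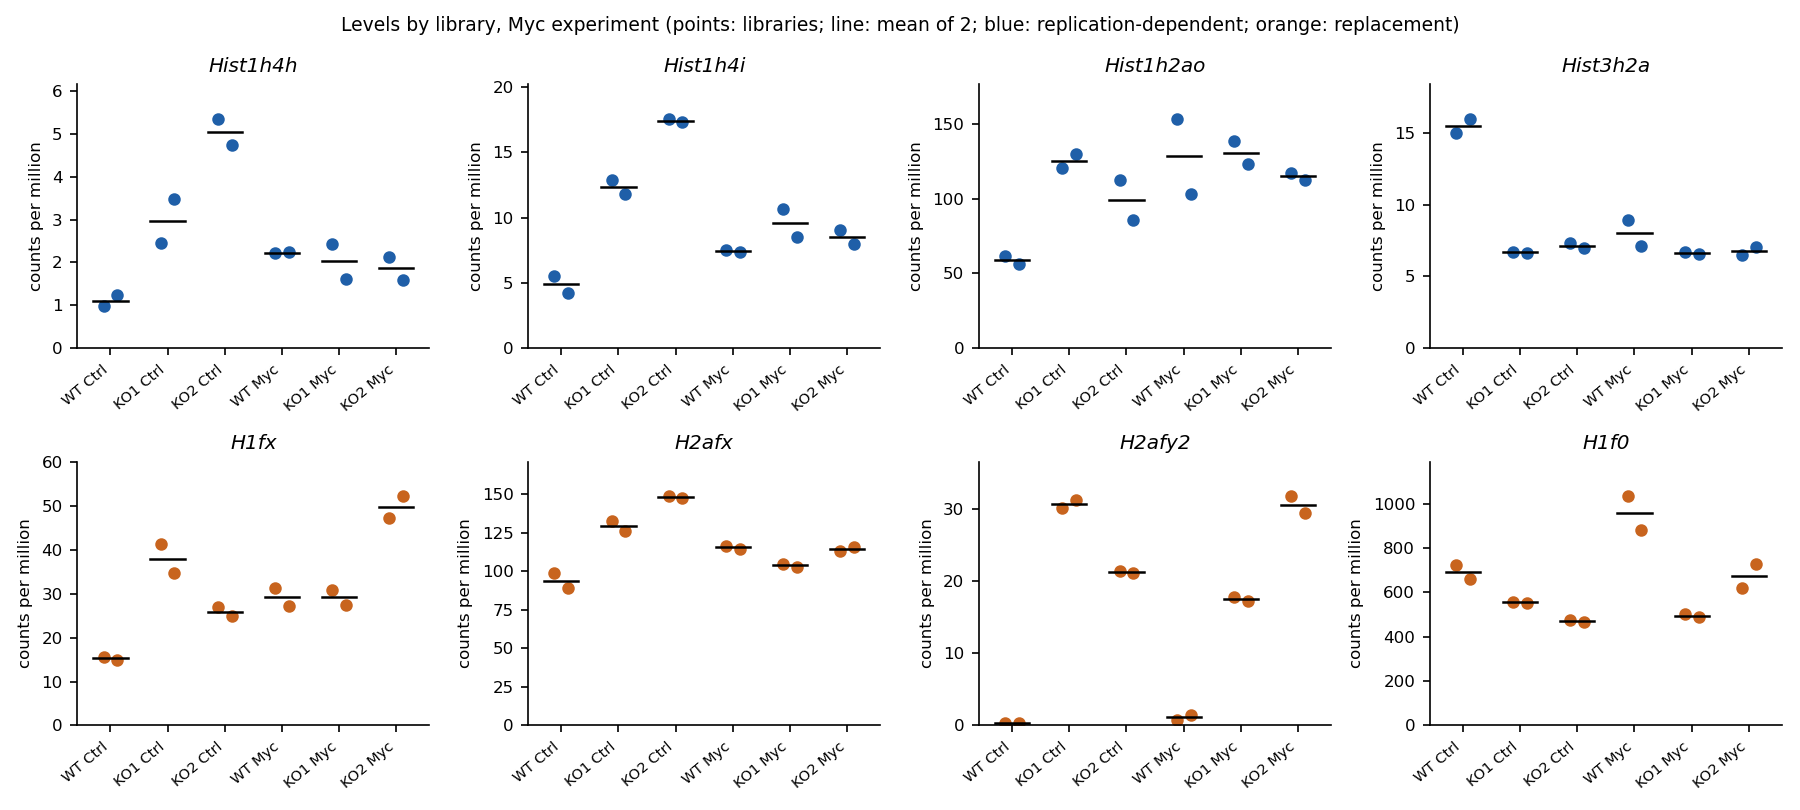
Levels of 8 histone genes in CPM in each library of the Myc experiment (points: libraries; lines: means of 2). Hist1h4h peaks in KO2 Ctrl at 5.36 and 4.75, Hist3h2a stands at 15 and 16 in WT Ctrl and below 9 elsewhere, and H2afy2 is near 0 in both WT groups.

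The difference of the Myc effect between KO and WT cells was then tested directly. It was lower in KO1 for 15 of 58 replication-dependent members and higher for 1, and lower for 7 of 12 replacement members, beside 19.2% of all genes called higher and 18.1% lower. In KO2 it was lower for 29 of 58 replication-dependent members and higher for 1, and lower for 1 of 12 replacement members, beside 16.6% of all genes called higher and 16.2% lower. In KO1 the 15 were Hist1h2bc (−0.49 ± 0.13), 11 H2A genes, from Hist1h2ab (−1.36 ± 0.38) to Hist1h2ac (−0.84 ± 0.22), and 3 H4 genes, Hist1h4h (−1.55 ± 0.41), Hist1h4b (−1.41 ± 0.40) and Hist1h4i (−0.97 ± 0.21). In KO2 all 10 H4 genes were among the 29, from Hist1h4f (−2.76 ± 0.50) to Hist1h4i (−1.65 ± 0.21). DESeq2 called 11 lower in KO1, 1 of them an H4 gene, with Hist1h4h (adjusted p = 0.0127), Hist1h4b (0.0246) and Hist1h2ab (0.0121) not passing, and 20 lower in KO2, where H2B calls went from 8 to 1 and H4 calls from 10 to 9. The member with a higher effect was Hist3h2a in both (0.94 ± 0.19 and 0.89 ± 0.18). All these values include the WT Ctrl libraries, in which most replication-dependent members were lowest and Hist3h2a highest. Without WT Ctrl replicate 2 the members called went from 23 to 15 in KO1, and in KO2 from 31 to 18 without WT Ctrl replicate 2 and likewise to 18 without KO2 Ctrl replicate 1.

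Between the libraries that carry the Myc vector few histone genes differed. KO1 Myc against WT Myc had no replication-dependent member called higher and 2 lower, with 2 replacement members higher and 5 lower, beside 12.6% of all genes called higher and 12.5% lower. KO2 Myc against WT Myc had 1 replication-dependent member higher and 1 lower, with 3 replacement members higher and 1 lower, beside 17.2% of all genes called higher and 18% lower. H2afy2 (3.92 ± 0.17 and 4.73 ± 0.16) and H2afy3 (4.10 ± 0.43 and 4.60 ± 0.40) were higher in both, with H2afy2 at 17.8 and 17.2 CPM for KO1 Myc, then 31.7 and 29.4 for KO2 Myc. H2afy2 thus followed the KO label in all 12 libraries of the Myc experiment, while Trim33 mRNA did not. Whether the counts of H2afy3 are independent of those of H2afy2 was not tested. In the HU experiment H2afy2 did not separate WT from KO cells, so its level cannot settle the genotype either. H1f0 was lower in both (−0.95 ± 0.08 and −0.51 ± 0.08), as was Hist1h2bc (−0.48 ± 0.09 and −0.35 ± 0.09). Hist1h2bc missed the threshold in KO2 without WT Myc replicate 1 (adjusted p = 0.0458), KO2 Myc replicate 1 (0.0315) or KO2 Myc replicate 2 (0.0190). With only the compared groups in the edgeR fit it missed in KO1 (adjusted p = 0.0149) and in KO2 (0.0341). DESeq2 did not call it in KO2 (adjusted p = 0.0202).

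The remaining calls between these libraries concerned H1, H3.3 and H2A.Z genes and the H2B gene Hist2h2be. Hist1h1c was at 42.3 and 42.1 CPM in the libraries labelled KO1 Myc against 81.3 and 64.7 in those labelled WT Myc (−0.79 ± 0.11). H3f3a (−0.46 ± 0.06), H3f3c (−0.45 ± 0.06), H2afv (−0.39 ± 0.09) and H3f3b (−0.27 ± 0.05) were also lower in KO1 Myc. Of these, H2afv (0.0200 without WT Myc replicate 1 and 0.0431 without KO1 Myc replicate 2) and H3f3b (0.0114 and 0.0155 without KO1 Myc replicate 1 and 2) lost their call, the values being edgeR adjusted p-values. With only the compared groups in the fit, H2afv (0.0383) and H3f3b (0.04545) lost it too. In KO2 Myc, H1fx (0.77 ± 0.10) and Hist2h2be (0.87 ± 0.17) were higher. H2afx was at −0.16 ± 0.06 and −0.01 ± 0.06, H2afz at −0.21 ± 0.08 and −0.12 ± 0.08, and H2afy at −0.12 ± 0.06 and −0.17 ± 0.06, and none of these passed. Without WT Myc replicate 2, members called in KO2 Myc went from 6 to 15, 4 higher and 11 lower.

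HU, which blocks the making of deoxyribonucleotides and thereby DNA synthesis, lowered replication-dependent histone mRNA, foremost of H2A genes, in WT and in KO cells. In WT cells 8 of 22 replication-dependent members fell and none rose (median −1.13, against 0.00 for all genes; edgeR, adjusted p below 0.05), beside 6.39% of all 11210 genes called higher and 3.44% lower. In KO cells 9 of 22 fell and none rose (median −1.73), beside 4.65% of all genes called higher and 1.8% lower. H2A genes fell in 7 of 12 cases in WT (median −1.63) and in 8 of 12 in KO cells (−2.90), whereas none of 7 H2B genes was called in either by edgeR or DESeq2 (−0.84 and −0.95), with 2 lower at an unadjusted p below 0.05 in each. DESeq2 called 4 of the 22 members lower in WT, where it gave 15 of the 33 histone genes no adjusted p, and 8 in KO cells. As a share of the library the 22 genes went from 0.0572% and 0.0754% to 0.0289% and 0.0215% in WT, and from 0.0668% and 0.0762% to 0.0182% and 0.0175% in KO cells, so treated and untreated libraries did not overlap. The 11 replacement genes went from 0.234% and 0.246% to 0.249% and 0.243% in WT, and from 0.197% and 0.213% to 0.178% and 0.166% in KO cells. Without WT HU replicate 2, members of both classes called in WT went from 10 to 5.

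Hist1h2ao and its identical copy Hist1h2ap led the fall in WT cells. Hist1h2ao was at 140 and 171 CPM in untreated WT, 33.1 and 18.7 in WT with HU, 162 and 189 in untreated KO, and 21.9 and 25.3 in KO with HU. Every treated library lay far below every untreated one. The log2 fold change was −2.58 ± 0.18 in WT (edgeR adjusted p = 8.39e-19) and −2.90 ± 0.18 in KO cells (adjusted p = 1.16e-20). Hist1h2ag was at 47.1 and 78.6 CPM in untreated WT and 23.2 and 7.97 in WT with HU, and at 69.5 and 81.9 and then 8.48 and 8.30 in KO cells. Its fold changes were −2.00 ± 0.26 and −3.17 ± 0.29. The others that fell in both were Hist1h2ac (−2.07 and −2.94), Hist1h2ad (−1.78 and −3.01), Hist1h2ah (−1.63 and −3.05) and Hist1h2an (−1.63 and −2.81), and Hist1h2ai fell in KO cells (−2.91 ± 0.59). The call of Hist1h2ad in WT was lost without WT untreated replicate 2 (adjusted p = 0.0683) or WT HU replicate 2 (0.127).

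Fewer genes passed outside this set of near copies. Hist1h4i, the only H4 gene in the HU table, fell in WT (−1.03 ± 0.35, edgeR adjusted p = 0.0441), from 17.6 and 31.6 to 11.8 and 12.5 CPM, and was at 10.2 and 20.7 and then 9.19 and 7.51 CPM in KO cells without a call. Hist1h3c, the only replication-dependent H3 gene there, went the other way, at 0.03 in WT and 1.86 in KO cells. It was called in neither, but was higher in KO cells at an unadjusted edgeR p below 0.05. Of the 3 replication-dependent members of this table in no read family (Hist3h2a, Hist2h2be and Hist1h1c), none was called by edgeR in WT (0 at an unadjusted p below 0.05) and Hist1h1c was lower in KO cells, with medians of −0.97 and −1.19. The 4 members of this class that DESeq2 called lower in WT and the 8 in KO cells were all H2A genes. Hist1h4i in WT and Hist1h1c in KO cells were thus not called by DESeq2. Hist1h2al, an H2A gene, was not called in either. It was at 37.7 and 41.4 CPM in untreated WT, 37.5 and 35.3 with HU, and in KO cells at 45.9 and 45.8 and then 37.5 and 44.3 (−0.12 ± 0.21 and −0.17 ± 0.20, not called). No stem-loop motif was found after its stop codon. Hist1h2an, which also had no match, fell in both, and it shares reads with genes that have the motif. Hist1h2al shares sequence with such genes too. Of its words, 69.6% occur in Hist2h2aa1 and in Hist2h2aa2, which have the motif but were not listed in the HU table. The part of shared reads in the values of Hist1h2al and Hist1h2an was not tested.

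Split by the motif, members form much the same sets as by class, since H2afx was the only replacement member with a match. H1f0 and H3f3c have no annotated stop codon, were not searched and are left out. In WT cells 8 of 20 members with the stem-loop fell with HU (median −1.22), and of 11 without it 1 fell and 1 rose (0.04). Over all genes 3.44% were called lower and 6.39% higher. In KO cells 9 of 20 with the stem-loop fell (median −1.83), and 1 of 11 without it fell (−0.17), beside 1.8% of all genes called lower. H1f0, not searched, fell in KO cells too (−1.06). Most members that fell are H2A genes that share reads. H2afx, the replacement gene with the stem-loop, was among those that fell. It was at 134 and 168 CPM in untreated WT and 72.5 and 49.9 with HU, and at 145 and 173 and then 65 and 51.4 CPM in KO cells. Treated and untreated libraries did not overlap. The log2 fold change was −1.30 ± 0.16 in WT (edgeR adjusted p = 1.71e-09) and −1.45 ± 0.16 in KO cells (adjusted p = 9.54e-11). H2afx shares 6.27% of its 50-base words with Hist1h2ao, Hist1h2ap, Hist1h2ag and Hist1h2ac, which fell too, and 1.84% with Hist1h2al. These words are 17.4% of those of Hist1h2ao and 19.4% of those of Hist1h2ag, just under the limit for joining a read family, and the part of shared reads in the fall of H2afx was not tested.

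**Figure D4:**
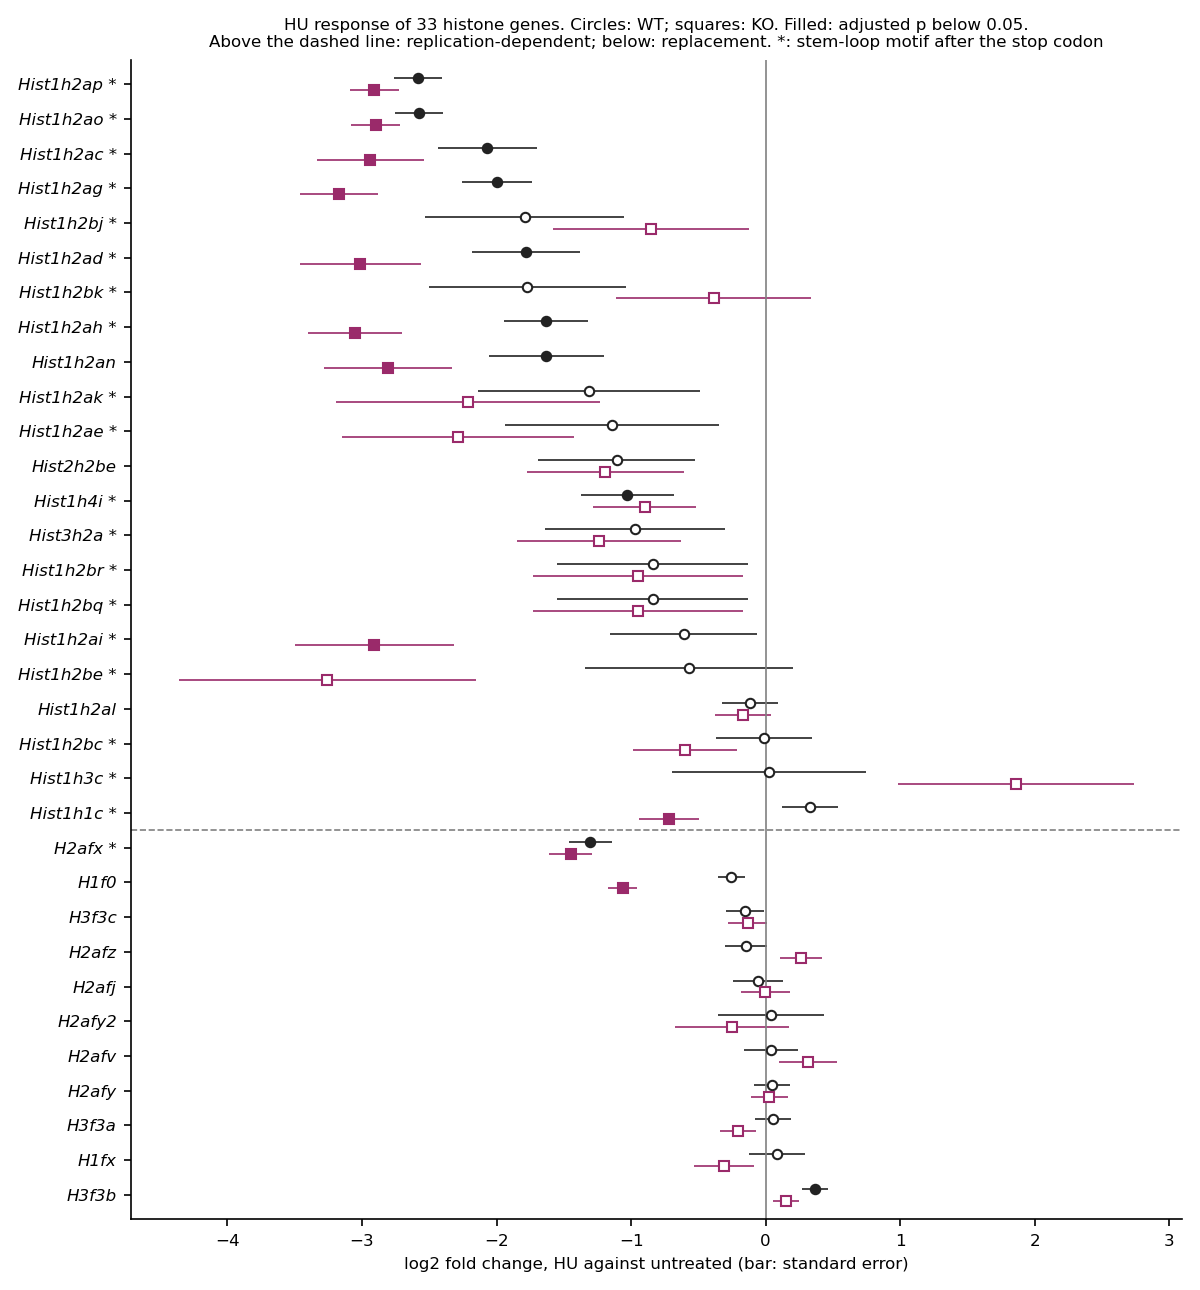
Log2 fold changes with HU of the 33 histone genes in the HU table, with standard errors, in WT (circles) and KO cells (squares); filled points passed at an adjusted p below 0.05, and stars mark the stem-loop motif. Of 20 genes with the motif 8 fell in WT and 9 in KO cells, H2afx among them (−1.30 and −1.45). H1f0 and H3f3c were not searched for the motif.

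The other replacement genes mostly kept their level with HU. In WT cells 1 of 11 rose and 1 fell (median 0.04), and in KO cells none rose and 2 fell (median −0.13). Over all genes 6.39% were called higher and 3.44% lower in WT, and 4.65% and 1.8% in KO cells. H3f3b rose in WT (0.37 ± 0.10, edgeR adjusted p = 0.00570), from 883 and 897 to 1150 and 1150 CPM, and was at 758 and 758 and then 882 and 800 CPM in KO cells (0.15 ± 0.10, not called). Its call in WT was lost without WT HU replicate 1 (adjusted p = 0.0946) or 2 (0.0990). H3f3a was at 0.05 ± 0.13 in WT and −0.20 ± 0.13 in KO cells, H2afz at −0.15 ± 0.15 and 0.26 ± 0.16, H2afy at 0.05 ± 0.13 and 0.03 ± 0.14, and H1fx at 0.08 ± 0.21 and −0.31 ± 0.22, and none passed.

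The linker histone gene H1f0 was the single member whose change with HU was called different between WT and KO cells. It was at 686 and 724 CPM in untreated WT, 601 and 580 in WT with HU, 554 and 621 in untreated KO, and 309 and 254 in KO with HU. Only the treated KO libraries were far below the rest. The change with HU was −0.26 ± 0.10 in WT, which did not pass, and −1.06 ± 0.11 in KO cells (edgeR adjusted p = 4.30e-12). The difference between the 2 effects was −0.81 ± 0.15 (adjusted p = 0.00935). It was −0.39 ± 0.30 for H1fx (adjusted p = 0.947) and −1.04 ± 0.31 for Hist1h1c (0.565), which did not pass. None of 22 replication-dependent members passed that test with edgeR or DESeq2 (4 lower at an unadjusted p below 0.05), and 1 of 11 replacement members did, beside 0.0446% of all genes called higher and 0.0268% lower. The call was lost without WT HU replicate 1 (adjusted p = 0.146), WT HU replicate 2 (0.135), KO untreated replicate 2 (0.0507) or KO HU replicate 2 (0.396), with values from −0.68 to −0.83. Hist1h1c went from 43.5 and 48.8 CPM to 37.5 and 18.2 in KO cells (−0.72 ± 0.23, adjusted p = 0.0388), and was at 42.8 and 51.1 and then 57.3 and 61 in WT (0.33 ± 0.21, not called). The treated KO libraries differ widely for this gene, and DESeq2 did not call it in KO cells.

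Without HU, Trim33 loss moved few histone genes in this experiment. No replication-dependent member was called in untreated KO against untreated WT cells by edgeR or DESeq2 (1 higher and 1 lower at an unadjusted p below 0.05), and 1 replacement member, H2afv (H2A.Z), was lower (−0.71 ± 0.21, edgeR adjusted p = 0.0180), beside 6.29% of all genes called higher and 5.74% lower. DESeq2 did not call it (adjusted p = 0.0607), and its edgeR call was lost without WT untreated replicate 1 (0.133), KO untreated replicate 1 (0.101) or KO untreated replicate 2 (0.0521). H3f3b (−0.23 ± 0.10), H1f0 (−0.26 ± 0.10), H2afz (−0.35 ± 0.16), H3f3a (0.15 ± 0.13), H2afx (0.07 ± 0.15), H2afy (−0.11 ± 0.14) and H1fx (−0.24 ± 0.21) did not pass. The higher level of replication-dependent genes in KO1 Ctrl and KO2 Ctrl was not called here, in libraries that hold fewer counts and list 1 of the 10 H4 genes. Hist1h2ao was at 140 and 171 CPM in untreated WT and 162 and 189 in untreated KO cells, which overlap.

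With HU, KO cells had 1 replication-dependent member lower than WT cells and 3 replacement members lower, and none higher, beside 5.75% of all genes called higher and 5.25% lower. These were Hist1h1c (−1.07 ± 0.22), H1f0 (−1.07 ± 0.11), H1fx (−0.64 ± 0.22) and H3f3b (−0.45 ± 0.10). Of the 4, 3 are linker histones. Without KO HU replicate 2 only 1 call was left, with Hist1h1c at −0.66 (edgeR adjusted p = 0.112), H1fx at −0.83 (0.0645) and H3f3b at −0.38 (0.0685). H1fx missed the threshold without any 1 of the 4 libraries (adjusted p = 0.0645 to 0.357). H2afx (−0.07 ± 0.17), H3f3a (−0.11 ± 0.13), H2afz (0.06 ± 0.15) and H2afy (−0.13 ± 0.13) did not pass.

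**Figure D5:**
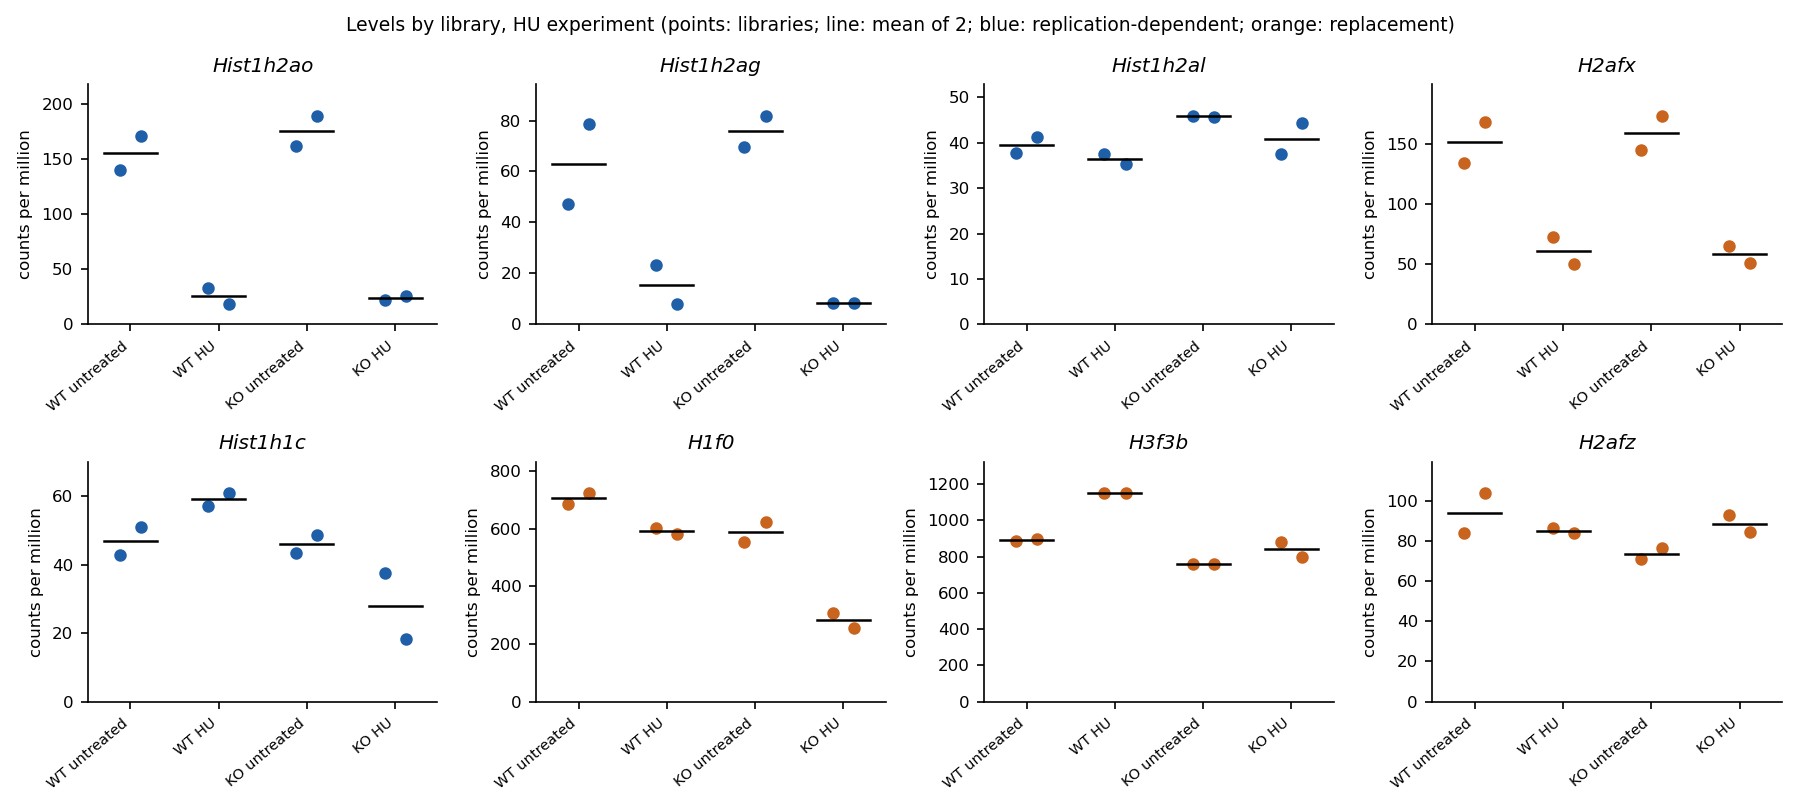
Levels of 8 histone genes in CPM in each library of the HU experiment (points: libraries; lines: means of 2). Hist1h2ao, Hist1h2ag and H2afx are lower in every treated library, Hist1h2al is not, and H1f0 is lowest in KO cells with HU (309 and 254).

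Few of the histone supply genes were called with HU, beside 6.39% of all genes called higher and 3.44% lower in WT, and 4.65% and 1.8% in KO cells. Of the 18 S phase entry genes 2 rose and none fell in WT (median 0.09; Cdc45 0.59 and Cdt1 0.45), and 1 rose in KO cells (median 0.15; Pcna 0.36). None of 15 tested genes for the 3′ end and decay of histone mRNA was called in either, with medians of −0.13 and 0.02, and Slbp was at 0.02 ± 0.14 in WT (edgeR adjusted p = 0.963) and 0.38 ± 0.14 in KO cells (0.0973). None of 10 transcription genes was called in WT (median 0.21) and 1 rose in KO cells (0.39; Cdk2 0.56). Of 23 chaperones 1 rose and 3 fell in WT (median −0.08), and 1 rose and 1 fell in KO cells (−0.05). Ubn1 rose in both (0.56 and 0.49), Anp32e, which removes H2A.Z from chromatin, fell in both (−0.44 and −0.36), and the chaperones Nap1l1 (−0.37) and Dek (−0.34) fell in WT. Npat (−0.02 and 0.09), Asf1b (0.03 and 0.16), Chaf1a (0.12 and 0.20) and Cenpa (−0.13 and −0.17) did not pass. Summed levels of Krt19 and Sox9 were 156 to 204 CPM in untreated WT and 289 to 294 with HU, and 257 to 264 and then 429 to 437 in KO cells, and their part in the histone result was not tested.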

How the data were processed

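Whole-number read counts per gene were deposited by the authors as 1 table for each experiment, and they are the counts used here. Per the labels and the submitters' processing notes, RNA was extracted with TRIzol, and reads were checked with FastQC 0.11.5 and mapped to mm9 with STAR 2.5.4. The paper's methods instead name the RNeasy kit for extraction, and the NEBNext Ultra RNA kit for the libraries. The counting tool, its use of strand, its treatment of reads that map to several copies, and whether mRNA was selected by its poly(A) tail are not given in the sources used here. The last points matter, since stem-loop histone mRNAs lack a tail and their genes share sequence. In the HU table, 71.9% of counts between 1 and 50 were even, against 48.4% in the Myc table. Deposited tables of the authors' own comparisons (fold changes and p-values) were not used.

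Counts were analysed with edgeR 4.0.16 in R 4.3.3: TMM scaling (factors 0.958 to 1.019 and 0.982 to 1.020), filterByExpr, which removed 0 genes, and the quasi-likelihood F test with all libraries of an experiment in 1 fit, two-sided. Benjamini-Hochberg adjustment ran over all 13107 or 11210 genes, including 298 and 168 rows without a symbol. Calls needed an adjusted p below 0.01 (Myc) or 0.05 (HU). The SE of a log2 fold change was its size divided by the square root of F. CPM divides a count by the total count times the TMM factor. The script was tested on simulated data. DESeq2 1.42.0 was run as an alternative. The members and the gene lists were chosen with earlier results of these data known. In each comparison the text names up to 5 replication-dependent and 4 replacement members called in each direction by size of change, members called against their class, and H3f3a, H3f3b, H2afz, H2afx, H2afy, H1f0 and H1fx; other names were chosen after their values were seen. From each supply list up to 4 called genes are named, with Slbp, Npat, Asf1b, Chaf1a and Cenpa. Gene models, stem-loops and shared words came from GENCODE on mm9, and counting intervals cover counting error only.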

Additional observations from a re-analysis of the deposited data

Results flagged for a closer look

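These results were set apart because the effect of the Myc vector, or of HU, differed between KO and WT cells in a test of the difference itself (edgeR, log2 scale, KO minus WT). Groups of 2 libraries are too small to test for a library that stands apart. The difference of the Myc effect in KO1 was −2.65 for H2afy2 (edgeR adjusted p = 0.000101), −1.55 for Hist1h4h (0.00474), −1.41 for Hist1h4b (0.00806), −1.36 for Hist1h2ab (0.00682), −1.32 for H1fx (3.01e-06), −1.31 for Hist1h2ae (0.00523), −1.26 for Hist1h2ai (0.000786), −0.87 for H3f3a (2.96e-07), −0.81 for H3f3c (9.28e-07), −0.63 for H1f0 (0.000192), −0.62 for H2afx (2.01e-05) and 0.94 for Hist3h2a (0.000541). In KO2 it was −2.76 for Hist1h4f (0.000286), −2.44 for Hist1h4h (9.34e-05), −2.31 for Hist1h4c (0.000124), −2.27 for Hist1h4b (0.000182), −2.21 for Hist1h4j (0.000185), −0.67 for H2afx (9.77e-06) and 0.89 for Hist3h2a (0.000911). The sets for KO1 and KO2 share the WT libraries, and the H4 genes share reads.

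The fitted value of H2afy2 rests on 5 and 4 counts in WT Ctrl. In KO1 the calls of Hist1h4h, Hist1h4b, Hist1h2ab and Hist1h2ae were lost on leaving out single libraries, WT Ctrl replicate 1 and 2, KO1 Ctrl replicate 2 and KO1 Myc replicate 2 for all 4 genes, with adjusted p-values from 0.0130 to 0.0405, and further libraries for Hist1h4b, Hist1h2ab and Hist1h2ae. With HU the difference was −0.81 for H1f0 (0.00935), also lost without 4 of the 8 libraries.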

How the results depend on the processing

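Leaving out 1 library at a time, the histone genes called numbered 20 to 29 in KO1 Ctrl against WT Ctrl (36 in full), 24 to 28 in KO2 Ctrl (41), 20 to 23 with Myc in WT (27), 4 to 9 with Myc in KO1 (9), 13 to 14 with Myc in KO2 (15), 7 to 11 in KO1 Myc against WT Myc (9), 5 to 15 in KO2 Myc (6), 15 to 24 and 18 to 30 for the difference of the Myc effect in KO1 (23) and KO2 (31), 5 to 10 with HU in WT (10), 10 to 11 in KO (11), 0 to 1 in KO against WT untreated (1), 1 to 5 with HU (4), and 0 to 1 for the difference of the HU effect (1). With a floor of 5 CPM in every library, which left 22 and 18 members, calls were 16 in KO1 Ctrl, 14 in KO2 Ctrl, 17 with Myc in WT, 5 with Myc in KO2, 3 in KO2 Myc against WT Myc, 12 for the Myc difference in KO2, 6 with HU in WT and 6 in KO. Fewer members could be called by construction. DESeq2 called 6 with HU in WT (2 of those called by edgeR had no adjusted p) and 0 in KO against WT untreated, and library totals alone gave 2 there; the cause was not tested. Replicate numbers did not pair the samples (correlations of −0.148 to 0.192 over 15 pairs and −0.014 to 0.051 over 6), and with the replicate as a block the counts were 34 in KO1 Ctrl, 40 in KO2 Ctrl, 27, 9 and 16 with Myc in WT, KO1 and KO2, 10 and 11 with HU in WT and KO, and 6 in KO against WT with HU. The tests of differences in the Myc and HU effects under these alternatives were added after the data were seen.

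Class medians were recomputed with the floor of 5 CPM, with library totals alone and with 1 library fewer. Of these 192 medians, 152 moved by less than the standard deviation between replicate libraries, and 40 moved by more. Of 1999 values of named genes under an alternative, 1838 kept their direction and side of the threshold, 101 lost their call, 12 gained one and 48 turned direction. None of the 48 was called in full, and they ran from −0.10 to 0.23. With library totals alone they were H3f3b at 0.016 (KO1 Ctrl) and 0.053 (KO2 Ctrl), H2afz at 0.0072 (KO2 Ctrl), H1fx at −0.0061 (KO1 Myc against WT Myc), and for the Myc difference in KO2 H1f0 at −0.047 and H1fx at −0.091. With the floor of 5 CPM they were H3f3b at 0.0083 (KO2 Ctrl) and H1fx at −0.037 (Myc difference in KO2). For the latter DESeq2 gave −0.0012, scaling without the members −0.00070, and the compared groups alone −0.0028. Leaving out 1 library, values whose direction turned ranged from −0.16 to 0.0026 for H2afz in KO2 Ctrl; from −0.040 to 0.12 for H2afz and −0.073 to 0.012 for H2afy with Myc in KO2; from −0.10 to 0.11 for H1fx in KO1 Myc; from −0.064 to 0.014 for H3f3a and −0.026 to 0.0067 for H2afx in KO2 Myc; and, for the Myc difference in KO2, from −0.10 to 0.012 for H3f3b, −0.12 to 0.036 for H2afz, −0.074 to 0.17 for H1f0 and −0.10 to 0.11 for H1fx. With HU in WT they ranged from −0.021 to 0.10 for H3f3a, −0.30 to 0.0037 for H2afz and −0.060 to 0.14 for H2afy, and in KO from −0.063 to 0.12 for H2afy and −0.56 to 0.021 for H1fx. In KO against WT they ranged from −0.082 to 0.24 for H2afx untreated, and with HU from −0.015 to 0.12 for H2afz and −0.31 to 0.23 for H2afx. For the HU difference they ranged from −0.39 to 0.15 for H2afx and −0.11 to 0.087 for H2afy. Counts below 50 in 21 and 13 members limit what could be called.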
